A study of Arabidopsis lyrata subsp. lyrata with 8 samples.

Results

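The hydroxycinnamoyl spermidine conjugate genes were taken as the gene models whose name carries one of 6 Arabidopsis thaliana locus codes, and 4 of the 32386 models on the array were found in this way. They are the acyltransferases SCT (AT2G25150) and SHT (AT2G19070), the methyltransferase TSM1 (AT1G67990) and the hydroxylase CYP98A8 (AT1G74540). The remaining 2 codes, those of the acyltransferase SDT (AT2G23510) and of the hydroxylase CYP98A9 (AT1G74550), had no model of that name and were not analysed here. The codes were chosen from root and flower bud values measured on these same arrays, so the tissue contrast of the members is given as a description and without a test. Each of the 4 genes was represented by 1 model, 1 probe and 2 spots on every array, and all 4 passed the filter on dim models.

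Transcripts were measured in roots and in flower buds of Arabidopsis lyrata ssp. lyrata, an outcrossing relative of A. thaliana. The plants were 6 weeks old, healthy, given no stated treatment and raised in hydroponic culture, and each replicate was a pool of tissue from 8 to 10 of them, with 4 root and 4 flower bud samples. The labels add "col 0" to the plant material, which is otherwise the name of an A. thaliana accession. They give no genotype difference, treatment or dissection stage between samples, and roots and buds are each a mixture of cell types.

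Hydroxycinnamoyl spermidines are phenolamides in which spermidine, a polyamine, carries phenolic acyl groups. BAHD acyltransferases move the acyl groups onto the amines from coenzyme A thioesters made by the phenylpropanoid pathway, and CYP98A enzymes and O-methyltransferases then hydroxylate and methylate the rings. In A. thaliana, SHT, CYP98A8 and TSM1 act in the tapetum, the secretory layer of the anther that lines the pollen sac, and their products are laid down on the pollen coat, whereas SCT makes dicoumaroyl spermidine and is known for expression in root tips.

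Between 73.0% and 75.2% of spots were well above background on the root arrays and between 78.9% and 80.5% on the flower bud arrays, and none was saturated. The variance of the difference between flower bud arrays 1 and 2 was 0.787 of that which the scatter of repeated spots would give, and for arrays 3 and 4 it was 0.902, so each pair differed by no more than sampling noise, whereas every other pair of arrays within a tissue had a ratio between 4.78 and 19.4. The first pair was therefore averaged and counted as 1 sample, called A, and the second as sample B, which left 4 root and 2 flower bud samples. Nothing in the labels says whether replicates came from separate cultures, so p-values measure only the spread between these samples. All arrays lay on 1 slide, the roots in the first row and the buds in the second, and the effects of row and tissue cannot be told apart. The tissue labels were checked against marker genes of A. thaliana. All 7 root markers tested were higher in root, with a median log2 difference of 9.52, and 5 of them were well above background on no flower bud array. SCR, a root patterning gene named after its values were seen, was no longer called when arrays were scaled to the spike-in probes, at 0.81 (adjusted p = 0.0806) against 1.52. In contrast, all 4 floral organ identity genes tested, among them AP1 and AP3, were lower in root, with a median of -9.17. The 5 green tissue markers tested were also lower in root, with a median of -9.09. Among all tested models, 24.3% were higher in root and 27.2% lower.

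SCT, the spermidine dicoumaroyl transferase, was the member with the higher signal in root. Its processed signal, the brightness of the spots after the scanner software had subtracted background, was 76209, 58597, 48326 and 30577 in root samples 1 to 4, against 4.71 and 6.77 on the 2 arrays of flower bud sample B and 4.74 and 4.82 on those of sample A. Every root value lay above every flower bud value, and no flower bud spot was well above background. After the 75th percentile of each array was subtracted on the log2 scale, the levels were 4.09, 4.02, 4.03 and 3.59 in root, with a mean of 3.93 ± 0.23 (SD, n = 4), against -9.75 in sample B and -10.06 in sample A. SCT signal was thus at least 3553-fold higher in root than in flower bud. That bound, like those that follow, sets the bright tissue against the lowest signal of any spot well above background on each array of the dim tissue, which was 20.0, 19.5, 19.3 and 27.8 on flower bud arrays 1 to 4. The measured means differed by 13.84 ± 0.19 on the log2 scale (SE), a value that, unlike the bound, rests on flower bud spots not well above background. In these mixed tissues, fewer cells of a type and less RNA per cell cannot be told apart.

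SHT, the spermidine hydroxycinnamoyl transferase of the tapetum, ran the opposite way. Its processed signal was 53.3, 58.7, 57.3 and 54.1 in root samples 1 to 4, against 18439 and 19074 on the arrays of flower bud sample B and 18401 and 18072 on those of sample A. The groups did not overlap, and the 4 flower bud arrays lay close together. SHT was the one tapetum-type member with all 8 root spots well above background, so that its fold change could be measured on both sides. Its root level was still dim, 1.58 on the log2 scale above the mean lowest level of spots well above background. The normalised log2 level was -6.39, -5.94, -5.70 and -5.56 in root, with a mean of -5.90 ± 0.37 (SD, n = 4), against 1.95 in sample B and 1.84 in sample A. The difference of -7.79 ± 0.25 (SE) corresponds to a 221-fold lower signal in root. The root signals of SHT spanned 1.1-fold before scaling, while the 75th percentile of the root arrays spanned 1.76-fold.

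TSM1, the tapetum-specific methyltransferase, was not well above background on any root array. Its processed signal was 5.76, 4.26, 4.25 and 4.13 in root samples 1 to 4, against 22751 and 23262 on the arrays of flower bud sample B and 7264 and 7128 on those of sample A. Root and flower bud values did not overlap, and within flower bud both arrays of sample B lay above both arrays of sample A. The signal of TSM1 was at least 461-fold lower in root than in the flower bud mean, at least 844-fold lower than in sample B and at least 252-fold lower than in sample A. The measured log2 difference was -10.88 ± 0.45 (SE), from root levels between -9.73 and -9.26 against 2.24 in sample B and 0.50 in sample A.

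CYP98A8, a cytochrome P450 that hydroxylates the acyl groups of the spermidine conjugate, had a like profile. Its processed signal was 17.5, 4.49, 4.13 and 3.85 in root samples 1 to 4, against 15405 and 15159 on the arrays of flower bud sample B and 5085 and 5018 on those of sample A. The groups did not overlap, and sample B again lay above sample A on both of its arrays. Root sample 1 stood above the other root samples, and both of its spots were marked as significantly above background, but none of the root spots was well above background. CYP98A8 signal was at least 315-fold lower in root than in the flower bud mean, at least 561-fold lower than in sample B and at least 177-fold lower than in sample A. The measured log2 difference was -9.95 ± 0.61 (SE), with root levels of -8.03, -9.66, -9.49 and -9.37 against 1.65 in sample B and -0.02 in sample A.

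Of the 4 members, SCT was the 1 higher in root, and 3 were lower there than in flower bud. Over all tested models 51.5% were called, meaning an adjusted p under 0.05 in limma and at least a 2-fold difference, 24.3% being higher in root and 27.2% lower. Because the members were chosen on this contrast, nothing is read from their share. The lack of overlap between their root and flower bud values is likewise not read as a result. Its share over all models was not counted. The members were taken by name, so no cutoff separated them from other models. With normexp background correction, which pulls dim signals together by an offset of 50, the log2 differences were 10.01 for SCT, -6.60 for SHT, -6.92 for TSM1 and -6.29 for CYP98A8, so the size of each difference, though not its direction, depended on how dim signals were treated.

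**Figure D1:**
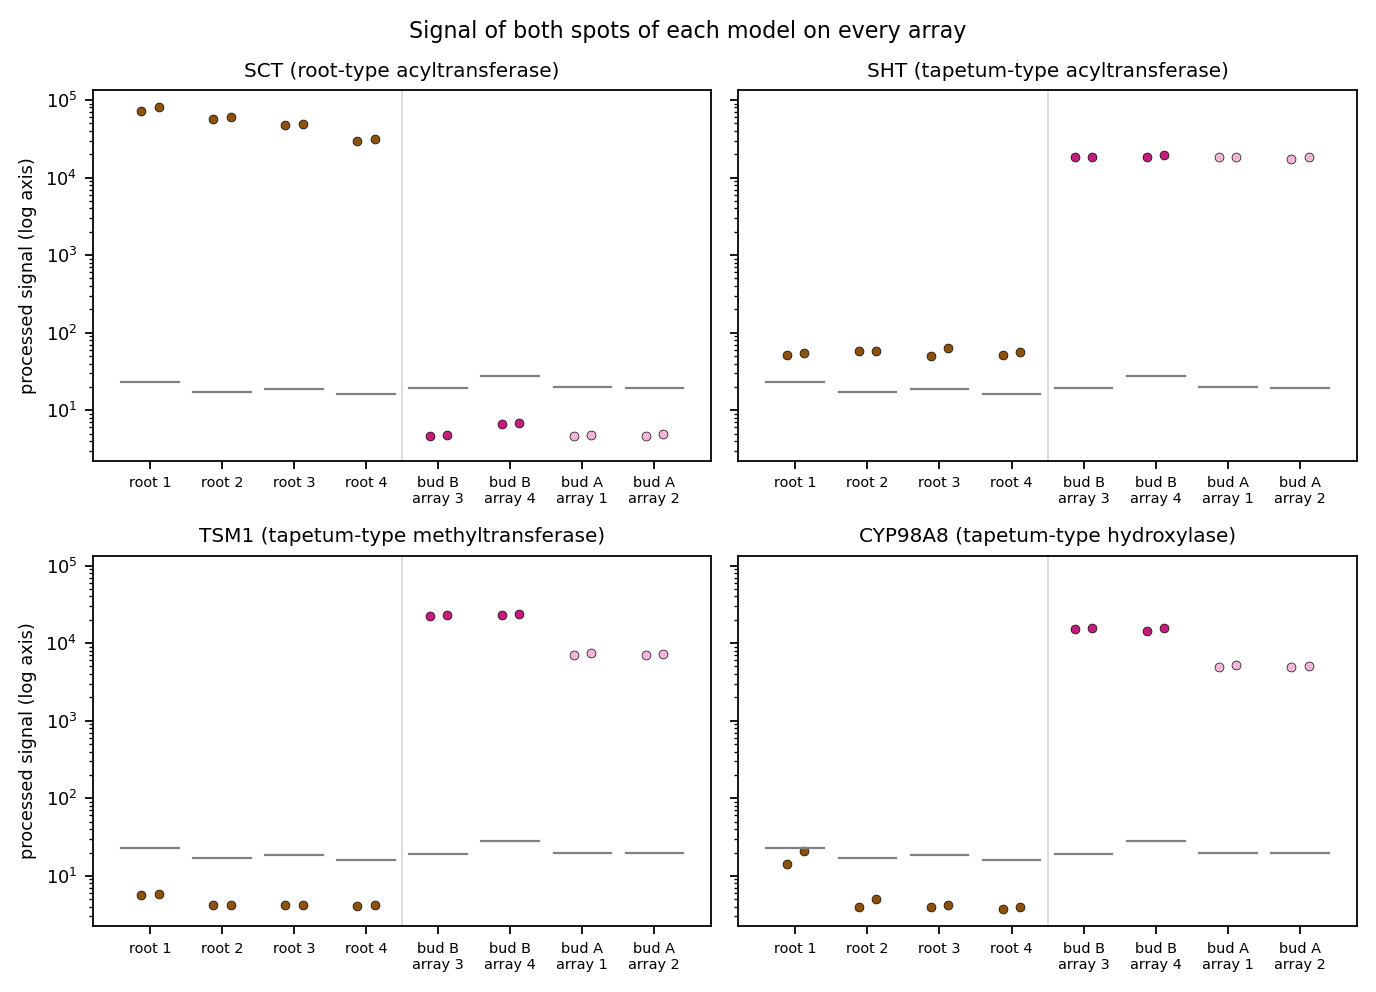
Processed signal of both spots of SCT, SHT, TSM1 and CYP98A8 (1 panel each, log axis) on the 4 root arrays, the 2 arrays of flower bud sample B and the 2 arrays of flower bud sample A, with a grey line at the lowest signal of a spot well above background on each array. SCT is bright in root and below the line in flower bud, SHT lies above the line in root, and TSM1 and CYP98A8 lie below it in root and are brighter on the arrays of sample B than on those of A.

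The 2 spots of a probe gave an account of technical error. Where both spots of a member were well above background, the brighter exceeded the dimmer by at most 1.27-fold on any array. Between the 2 arrays of a flower bud sample, SHT and TSM1 each moved by at most 0.019 on the log2 scale and CYP98A8 by at most 0.062. SCT, which was not well above background there, moved by 0.48.

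The flower bud samples separated the tapetum-type members from each other. TSM1 was 3.35-fold higher in sample B than in A, a log2 difference of 1.75, and CYP98A8 was 3.17-fold higher, a difference of 1.67. SHT differed by 0.11, or 1.08-fold. These differences of TSM1 and CYP98A8 are far larger than the gaps between arrays of the same sample. That of SHT, though small, also exceeds its own largest gap of 0.019. With 1 sample on each side, none of these differences has a replicate check or a test. Of the 24930 models well above background on all flower bud arrays, 3.0% were at least 2-fold higher in sample B and 1.16% at least 2-fold higher in sample A. The median difference over those models was -0.005, and the 5th and 95th percentiles were -0.46 and 0.76, so TSM1 and CYP98A8 lay above that range and SHT lay within it. Over the alternative scalings, background correction and deposited values, the difference stayed between 1.70 and 1.84 for TSM1, between 1.62 and 1.76 for CYP98A8 and between 0.06 and 0.13 for SHT.

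The same samples were compared for genes of the tapetum, a list of transcription factors, lipid and sporopollenin enzymes and structural proteins known from A. thaliana. All 13 tapetum genes tested were lower in root than in flower bud, with a median log2 difference of -5.08, against 0.0038 over all tested models. Of all tested models, 27.2% were lower in root. Of the 13, 5 were well above background on no root array and so passed the filter on dim models through flower bud alone. The list was also chosen with earlier results of these data known, so nothing is read from the count. With normexp background correction MS1, which acts late in tapetum development, was no longer called, at -2.09 (adjusted p = 0.0778) against -5.33 with the main processing, which itself became -7.96 with sample A left out and -2.69 with sample B left out. AMS, a transcription factor of tapetum development, was at least 791-fold lower in root (adjusted p = 5.44e-07), and GRP19, an oleosin-like pollen coat protein, at least 6476-fold lower (adjusted p = 1.53e-07). MYB80, a further regulator of the tapetum, had no model of that code. Between the flower bud samples, 10 of the 13 were at least 2-fold higher in sample B, and the median difference was 1.85. MS1 differed by 5.27, and the sporopollenin enzymes PKSB and PKSA by 4.92 and 3.10. The lowest value belonged to CYP704B1, a fatty acid hydroxylase of pollen wall synthesis, at 0.53. These last 4 genes were named after their values were seen. TSM1 and CYP98A8 lay within the range of the tapetum genes, with 7 and 8 of the 13 above them, whereas all 13 lay above SHT. The summed linear level of the tapetum list was 0.76 to 0.89 in root, against 86.7 in sample B and 38.4 in sample A. That sum took in all 14 models of the list, of which 13 were tested. In flower bud it was weighted most by GRP19, the brightest of them, at log2 levels of 5.62 in sample B and 4.74 in sample A. Floral organ identity genes differed between sample B and sample A by a median of -0.30 and green tissue genes by -0.08. The part of tapetum content or bud stage in the members' difference between samples was not tested.

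**Figure D2:**
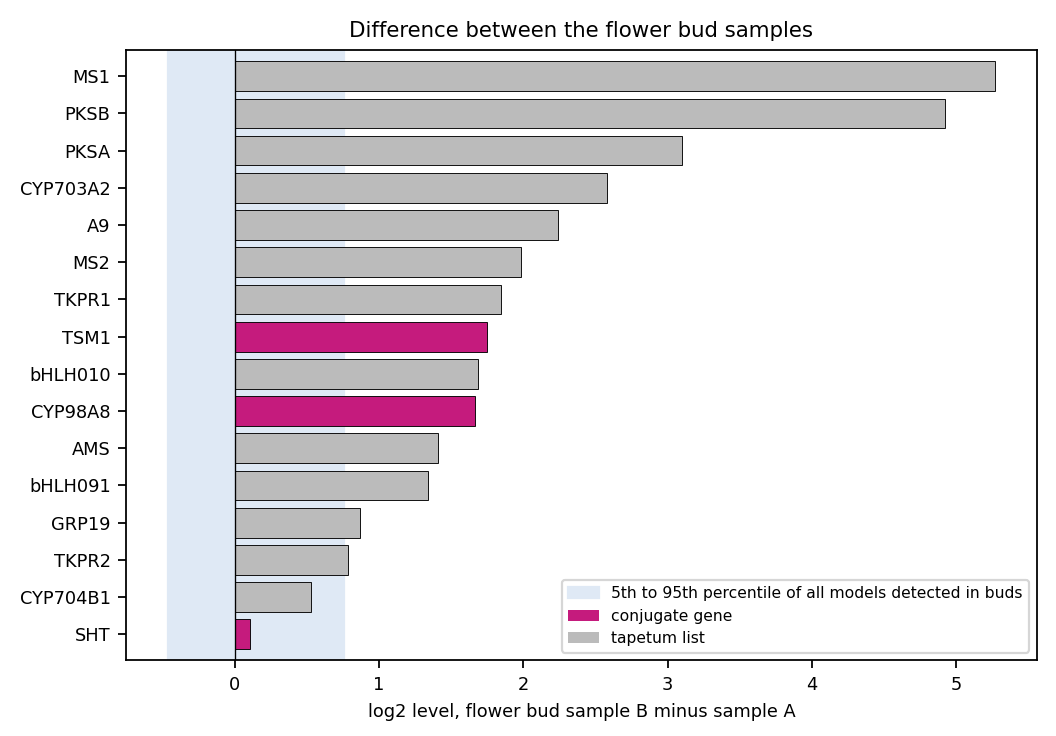
Log2 difference between flower bud samples B and A (x axis) for the 3 members measured in buds and for the 13 tapetum genes tested, with the range between the 5th and 95th percentiles of all models detected in buds shaded. TSM1 at 1.75 and CYP98A8 at 1.67 lie among the tapetum genes, whose median is 1.85, and SHT at 0.11 lies below all of them and inside the shaded range.

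The profiles over the 8 arrays were set against each other by the Euclidean distance between log2 levels centred on each gene's mean. TSM1 and CYP98A8 were the closest members, at a distance of 1.91. SHT was 3.90 from CYP98A8 and 4.69 from TSM1, and SCT was between 30.6 and 35.0 from the others. Among all other models with a locus code, the nearest to SCT were AT1G63570 at 1.45, AT1G66280 at 1.51 and AT2G33790, the arabinogalactan protein AGP30, at 1.56. The nearest to SHT were AT1G69180, the carpel and nectary transcription factor CRC, at 0.17, AT5G20940 at 0.33 and AT1G78980 at 0.45. The nearest to TSM1 were AT1G61070 at 0.19, AT2G03850 at 0.79 and AT3G55100 at 0.88. The nearest to CYP98A8 were AT1G75790 at 0.43, AT2G41415 at 0.57 and AT3G15400, the anther gene ATA20, at 1.41. Between flower bud samples B and A, CRC differed by 0.23, beside 0.11 for SHT, and AT1G61070 by 1.83, beside 1.75 for TSM1. These distances describe 8 arrays that stand for 6 samples, and they include the contrast between the tissues. They rest partly on signals not well above background, such as the root levels of TSM1 and CYP98A8 and the flower bud levels of SCT. In root sample 1, CYP98A8 stood at -8.03, AT1G75790 at -8.15 and AT2G41415 at -7.88, each above its other root levels. AT1G75790 and AT2G41415 were each well above background on 1 root array, and CYP98A8 on none.

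The acyl donors come from the general phenylpropanoid pathway, of which 8 of the 18 listed genes had a model, and all 8 were tested. Of these, 6 were higher in root, 1, CCOAMT, was lower, and PAL3 (0.31, adjusted p = 0.182) did not pass, and the median log2 difference was 2.00. Among all tested models, 24.3% were higher in root and 27.2% lower, and the list itself was not tested. C4H, the cinnamate hydroxylase that makes p-coumarate, stood at a log2 level of 5.13 ± 0.12 in root (SD, n = 4), against 1.63 in sample B and 1.47 in sample A, a difference of 3.58 ± 0.14 (SE, adjusted p = 1.39e-06). The coumarate:CoA ligase 4CL5 was 14.7-fold higher in root (log2 difference 3.87 ± 0.25 SE, adjusted p = 1.42e-05), and CSE, a caffeoyl shikimate esterase, differed by 3.64 ± 0.28 (SE, adjusted p = 3.32e-05). PAL1, a phenylalanine ammonia-lyase at the entry to the pathway, was higher in root by 1.85 ± 0.45 (SE, adjusted p = 0.00924), but its flower bud levels were unlike, at -0.93 in sample B against 0.73 in sample A. Without sample A the PAL1 difference was 2.67, without sample B it was 1.02, and with the arrays scaled to the spike-in probes it was 1.14 and no longer called (adjusted p = 0.0507). HCT and CYP98A3, the transferase and hydroxylase of the main route to caffeoyl-CoA, had no model of that code.

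The exception in this list was CCOAMT (AT1G67980), a caffeoyl-CoA O-methyltransferase of the same family as TSM1, which was 43.9-fold lower in root, with a log2 difference of -5.46 ± 0.53 (SE, adjusted p = 1.15e-04). Its model and that of TSM1 have consecutive serial numbers, 1055 and 1054, on scaffold 2 as the model names give it. Both genes were higher in flower bud, but CCOAMT was well above background on all 4 root arrays and TSM1 on none. Between the flower bud samples CCOAMT differed by -0.44, against 1.75 for TSM1. Probes for such related copies could share signal, which was not tested. The names place CYP98A8 on scaffold 2 with serial number 1722, SHT on scaffold 3 and SCT on scaffold 4.

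Spermidine, the acyl acceptor, and its relatives were covered by 8 of 17 listed genes of polyamine metabolism. Of these, 5 were higher in root, 0 were lower and 3 did not reach a 2-fold difference, with a median log2 difference of 1.5. The shares over all tested models were 24.3% higher in root and 27.2% lower, and the list itself was not tested. SPDS2, a spermidine synthase, was 10.4-fold higher in root, with a level of 1.96 ± 0.40 in root (SD, n = 4) against -0.98 in sample B and -1.87 in sample A (adjusted p = 1.31e-04). SAMDC4, an S-adenosylmethionine decarboxylase that supplies the aminopropyl group, was higher in root by 2.35 ± 0.25 (SE, adjusted p = 1.99e-04). SPDS1 had no model of that code. Scaled to the spike-in probes, which moved the median of all models by -0.71, 2 genes of the list, SPDS2 and SAMDC4, were higher in root, and SPMS, at -1.25 with an adjusted p of 0.0282, and NLP1, at -1.48 with an adjusted p of 0.0143, were higher in flower bud. SPMS is a spermine synthase and NLP1 an N-carbamoylputrescine amidase, and both were named, like PAL3 above, after their values were seen.

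The family of SCT and SHT was described by 8 further BAHD acyltransferases with a model, of 12 listed. Of these, 3 were higher in root, 4 were lower and EPS1 (-0.81 ± 0.16 SE) did not reach 2-fold, with a median of -2.68. Scaled to the spike-in probes, EPS1, an acyltransferase of salicylic acid synthesis named after its values were seen, was also called lower, at -1.52 (adjusted p = 0.00792). FACT, which puts caffeoyl groups on fatty alcohols in root waxes, had a log2 level of 3.56 ± 0.31 in root (SD, n = 4) against -5.51 in sample B and -8.62 in sample A, with 2 of the 4 flower bud arrays not well above background. It was called higher in root (adjusted p = 2.78e-05), with a measured difference of 10.62 ± 0.78 (SE) that became 9.07 with sample A left out and 12.17 with sample B left out. ASFT, the feruloyl transferase of suberin, differed by 5.22 ± 0.32 (SE, adjusted p = 1.07e-05). In the other direction CER2, which acts in the elongation of wax acyl chains, differed by -5.59 ± 0.30 (SE, adjusted p = 5.86e-06) and DCF, the cutin feruloyl transferase, by -5.19 ± 0.26 (SE, adjusted p = 4.66e-06). Over all tested models 24.3% were higher in root and 27.2% lower, and with 8 genes nothing particular to the family is read from these counts.

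Sinapate esters are a competing use of hydroxycinnamates, and 4 of the 5 listed genes of their synthesis were tested. Of these, 1 was higher in root and 3 were lower, with a median of -3.62. Beside shares of 24.3% higher and 27.2% lower over all tested models, nothing is read from the counts of so few genes. SNG2, which makes sinapoylcholine, was higher in root by 2.07 ± 0.29 (SE, adjusted p = 6.64e-04). The sinapate glucosyltransferase relative UGT84A3 differed by -6.66 ± 0.34 (SE, adjusted p = 4.41e-06), and SNG1, which makes sinapoylmalate, by -5.27 ± 0.28 (SE, adjusted p = 5.97e-06). UGT84A3 and SNG1 were each well above background on 3 of the 4 root arrays. Over the alternative settings their differences were as small as -4.96 and -3.41. UGT84A2, the third gene lower in root, differed by -1.96 ± 0.37 (SE, adjusted p = 0.00299).

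**Figure D3:**
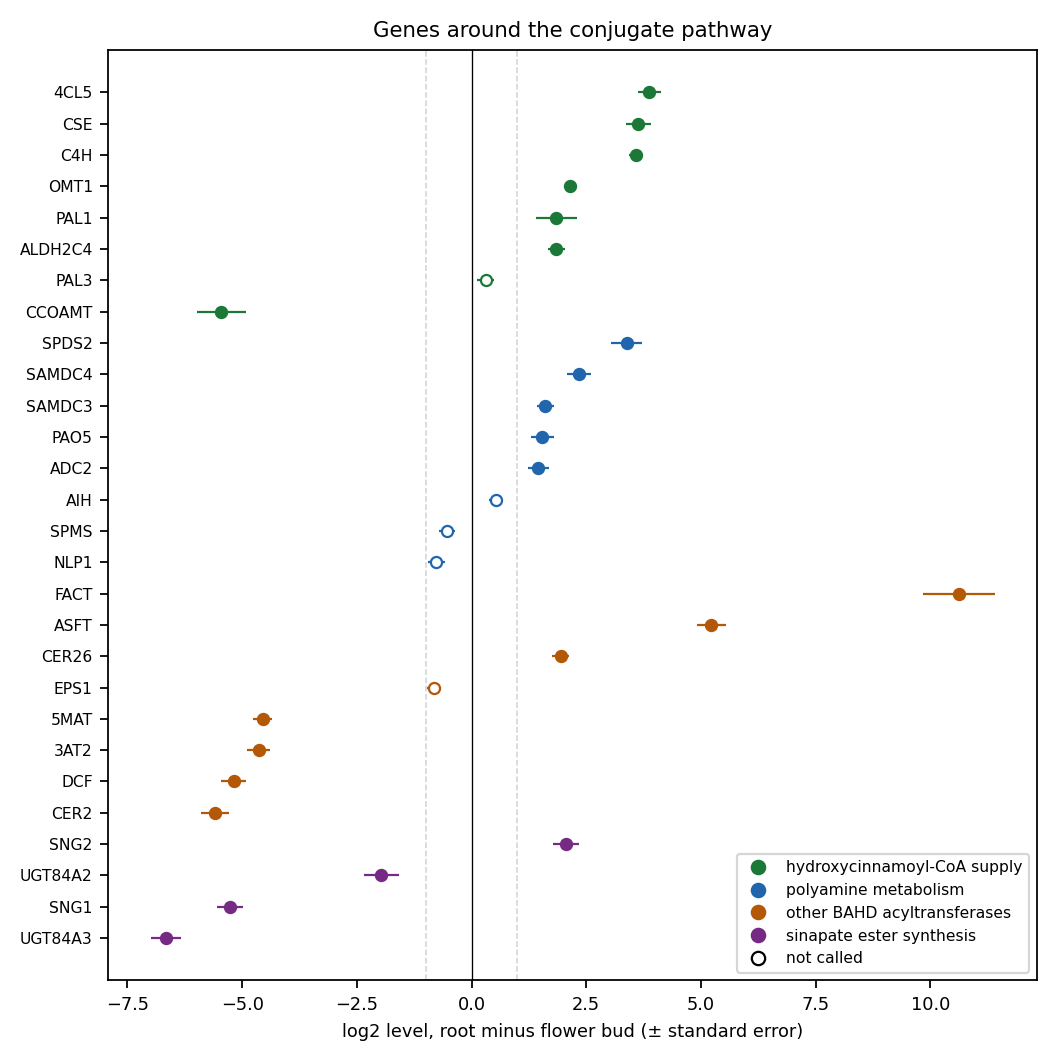
Log2 difference of root minus flower bud with its SE for each tested gene of the acyl donor, polyamine, BAHD and sinapate ester lists. Open symbols mark genes not called, and dashed lines mark a 2-fold difference. The tested donor and polyamine genes lie mostly on the root side, although with spike-in scaling 2 polyamine genes were called on each side. The BAHD family lies on both sides.

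Among the root samples, SCT was lowest in sample 4, at 3.59 against 4.02 to 4.09 in samples 1 to 3, and its unscaled signal spanned 2.49-fold. The green tissue markers did not move together in that sample: RBCS1B, at -4.65, and RBCS3B, at -4.52, were highest there, LHCA1, at 0.60, was lowest, and RBCS1A and CAB1 lay within the range of the other root samples. RBCS1A and RBCS1B were each well above background on 2 of the 4 root arrays, so their positions rest partly on dim signals. The SD of SCT over root samples was 0.23, close to the median of 0.22 over the 23223 models well above background on all 4 root arrays. That of SHT was 0.37, and those of TSM1 and CYP98A8, at 0.20 and 0.75, belong to signals not well above background.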

How the data were processed

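Total RNA was labelled with Cy3 and hybridised to 1-colour Agilent arrays, per the labels' protocols. The deposited scanner files hold spot intensity values after background subtraction, without normalization between arrays, made by Agilent Feature Extraction 10.10.1.1, per the file headers. An alternative was the table of log2 values that the authors deposited. Its columns followed the scanner signal on the log2 scale less the array's 75th percentile and the probe's median (r at least 0.99998). The medians of its root columns were 0.02, -0.05, 0.06 and 0.08, and those of its flower bud columns -0.04, -0.05, -0.02 and 0.06. No source states how it was made, so its scale, centring and direction are known from that comparison alone.

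Outlier and control spots were dropped, the spots of each probe averaged, and log2 of the processed signal minus the array's 75th percentile over non-control spots was taken. A probe was well above background where at least 0.5 of its spots were, and the brighter probe stood for a model. Models well above background on all 4 arrays of a tissue (26420) were fitted with limma 3.58.1 (lmFit, eBayes, Benjamini-Hochberg over all models) in R 4.3.3. A call needed an adjusted p under 0.05 and a 2-fold difference. The fit had 4 residual degrees of freedom and a median SE of 0.195 log2. The number of arrays limits the precision. The fit was tested on simulated data. It recovered 61.2% of true differences of 1.5 log2, 71.6% of those of 2 and 100% of those of 4. In that simulation 0 had the wrong sign, and 8 unchanged models were called.

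Models were named by the A. thaliana code in their name (12409 of 32386), and symbols and roles are those of A. thaliana. The sources used here name no genome build for the models. The members and lists were chosen with earlier results of these data known. Named were the members, up to 2 called genes of each list with the largest fold in each direction, PAL1, C4H, HCT, CYP98A3, SPDS1, SPDS2, AMS and MYB80, and the 3 models with a code nearest to each member. Alternatives were other scalings, quantile normalization, normexp, the deposited table, filters, the other probe, arrays as separate samples with and without a replicate block, and leaving out each sample.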

Additional observations from a re-analysis of the deposited data

Results flagged for a closer look

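Root levels of 38 genes, those named by the rule stated above, were examined for a sample that stood apart from the other 3. Chance trips this check in about 1 of 20 groups of samples. It was met by 2 genes, both in root sample 4, and 2 of 38 is about as many as chance gives. SCT was lowest there, at a log2 level of 3.59, with a gap of 0.43 to the nearest of the others at 4.02. PER7, a root peroxidase among the tissue markers, was also lowest there, at 2.35, with a gap of 0.30 to the nearest at 2.65. Genes that were only listed, or named after their values were seen, were outside this check. Some of them also stood apart in root sample 4, such as SPMS, at 0.64 against 1.02 to 1.03 in the others. Pairs of root arrays with sample 4 had variance ratios of 15.8 to 19.4, against 4.78 to 8.88 for the other pairs. A departure of that sample over many genes was not tested.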

How the results depend on the processing

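All 4 members kept their direction under every alternative in which they were tested. Scaling to the spike-in probes left 3958 models higher in root, against 6412, and within the polyamine list 2 genes higher in root and 2 lower. Calls for flower bud were 52.9% of all calls with the main scaling, 72.7% with the spike-in probes and 44.9% with the array median. When only models well above background on all 8 arrays were tested, 4268 were higher in flower bud, against 7194. That filter leaves fewer models by construction: 1 member higher in flower bud and 0 higher in root, 2 sinapate ester genes called with 1 higher in flower bud, and 7 tapetum genes called, all 7 higher in flower bud. With all 8 arrays as separate samples, a replicate block gave 6470 models higher in root and 7295 in flower bud, against 6472 and 7297 without it. Deviations of same-numbered root and flower bud arrays correlated at -0.076, 0.0185, -0.0106 and -0.0365. Because the 4 flower bud arrays stand for 2 samples, these values cannot decide whether root and flower bud samples were paired. Signals not well above background limit TSM1, CYP98A8 and SCT to bounds on 1 side.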
